A study of Mus musculus with 18 samples.

Results

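The genes described here are the prolactin receptor gene Prlr, the growth hormone receptor gene Ghr, the kinase gene Jak2, the transcription factor genes Stat5a, Stat5b and Stat3, and the feedback inhibitor genes Socs1, Socs2, Socs3 and Cish. They were picked by gene symbol, with earlier results of these data known, and are 10 of the 52636 gene identifiers in the files. Each of the 10 was found and passed the filter on low counts. The RNA came from mammary glands of 6 nulliparous, untreated mice, 12 weeks of age, all with the genotype MMTV-Cre. In that transgene the Cre recombinase is driven by the mouse mammary tumour virus promoter, which is active in mammary epithelium, and every group carries it, so no library here is free of it. Cells were sorted into hormone-sensing luminal cells (HSL, CD49f-lo/CD61-), alveolar progenitors (AP, CD49f-lo/CD61+) and basal cells (CD49f-hi/CD61+), each with 6 libraries. HSL cells are also called mature luminal cells and AP cells luminal progenitors.

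Prolactin and growth hormone bind related single-pass receptors that have no kinase activity of their own. The receptors carry the kinase JAK2, which on hormone binding phosphorylates STAT5A and STAT5B; these then enter the nucleus and bind DNA. STAT5A is needed for alveolar development and milk protein expression in the mouse mammary gland. STAT3 answers mainly to cytokines of the leukaemia inhibitory factor (LIF) and interleukin 6 family through the shared receptor chain gp130, and drives cell death and remodelling when the gland involutes after weaning. SOCS proteins and CIS, the product of Cish, are induced by STATs and bind the receptors or the kinases to shut the signal down.

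Total gene counts per library lay between 26516293 and 52404937 in HSL, 37391691 and 62505465 in AP, and 29899462 and 91095830 in basal libraries. Each sum of population markers was highest in the population of its label. The summed level of 9 hormone-sensing markers, Prlr among them, had a median of 8541 CPM in HSL, 1621 CPM in AP and 295 CPM in basal libraries (CPM, counts adjusted for library size by TMM factors). Prlr is itself described here, so this sum is not independent of the Prlr levels below. Each of the 9, not only Prlr, was called higher in HSL than in basal cells and than in AP cells. Of all tested genes 27.8% and 19.8% were called higher in these comparisons. The sum of 8 alveolar progenitor markers had a median of 324 CPM in HSL, 5145 CPM in AP and 219 CPM in basal libraries, and that of 10 basal markers 62.9 CPM in HSL, 176 CPM in AP and 38678 CPM in basal libraries. The libraries of sample 1 stood apart from the rest. Tnfsf11, which encodes RANK ligand, was at 592 CPM in HSL cells of sample 1 and between 0.132 and 6.33 CPM in the other 5 HSL libraries, and results below that depend on this sample are given without it too. RNA was measured per population, so fewer expressing cells and less RNA per cell cannot be told apart. All 9 hormone-sensing markers were also called higher in AP than in basal cells, as were 21.5% of all tested genes. Their median log2 fold was 2.56 for AP against basal and 2.30 for HSL against AP cells. The part of HSL cells within the AP sort in the AP levels of Prlr, Jak2 and Stat5a was not tested.

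Prlr had the steepest gradient of the 10 genes. The HSL libraries held between 1157 and 3240 CPM of Prlr (median 2560), the AP libraries between 120 and 802 CPM (median 483) and the basal libraries between 25.2 and 121 CPM (median 62.4). Every HSL library was above every AP and every basal library, whereas the lowest AP library, that of sample 1, lay just under the highest basal library, that of sample 4. Means were 2449 ± 690 CPM in HSL, 497 ± 263 CPM in AP and 65 ± 32.3 CPM in basal libraries (SD, n = 6 each). This made Prlr 37.7-fold higher in HSL than in basal cells (log2 5.24 ± 0.47, SE; adjusted p = 3.02e-08; edgeR quasi-likelihood test, Benjamini-Hochberg adjustment over 16471 genes, as for every adjusted p below unless another test is named). In AP cells it was 7.65-fold higher than in basal cells (2.93 ± 0.42, adjusted p = 1.54e-05), and HSL cells exceeded AP cells 4.93-fold (2.30 ± 0.41, adjusted p = 0.00023). Prlr lies on chromosome 15 of GRCm38, 10177238 to 10349180 on the plus strand, and 82.1% of its exonic bases fall within the span of a second annotated gene on the same strand, Gm21973, which itself had 4.52 CPM in HSL, 1.03 CPM in AP and 0.156 CPM in basal libraries. Only 1.32% of the exonic bases of Prlr are also exonic in Gm21973, and how the authors counted reads in such places is not given, so the absolute level of Prlr is uncertain.

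Ghr, which encodes the receptor for growth hormone and in this tissue is known mainly from stroma, ran the other way and at far lower counts. The HSL libraries held between 19.9 and 68.8 CPM of Ghr (median 40.8), the AP libraries between 33.6 and 74.2 CPM (median 62.4) and the basal libraries between 29.5 and 148 CPM (median 96.9). In each population the lowest value was that of sample 1, and the ranges of all 3 populations overlapped. Ghr was 2.24-fold lower in HSL than in basal cells (log2 -1.16 ± 0.31, adjusted p = 0.0036). The AP difference from basal cells did not pass (-0.69 ± 0.31, adjusted p = 0.079), nor did that of HSL from AP cells (-0.48 ± 0.31, adjusted p = 0.234). Under a replicate block of the sample number, which removes the shared deviation of sample 1, the AP difference from basal cells passed the threshold (-0.59 ± 0.15, adjusted p = 0.0045), and so did the HSL difference from AP cells (-0.52 ± 0.15, adjusted p = 0.0104). Without sample 1 these values for Ghr were -0.75 (adjusted p = 0.0018) and -0.47 (adjusted p = 0.0331). Over all 17 alternatives the adjusted p of Ghr ran from 0.00107 to 0.499 for AP against basal and from 0.00105 to 0.734 for HSL against AP cells. Markers of other cell types differed between populations too. The summed level of 10 fibroblast markers ran from 44.8 to 115 CPM in HSL and from 633 to 1610 CPM in AP libraries. In basal libraries it ran from 750 to 1198 CPM, and all 10 were above 0 in at least 1 library of each population. Its medians were 65.2 CPM in HSL, 952 CPM in AP and 952 CPM in basal libraries. The highest HSL sum was that of sample 1, where Ghr was lowest. For 8 adipocyte markers the sum ran from 18.4 to 63.7 CPM in HSL, from 31.7 to 126 CPM in AP and from 97.7 to 306 CPM in basal libraries, most of it Fabp4, while Adipoq averaged 0.138 CPM in basal libraries. The part of such cells in the Ghr result was not tested.

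**Figure D1:**
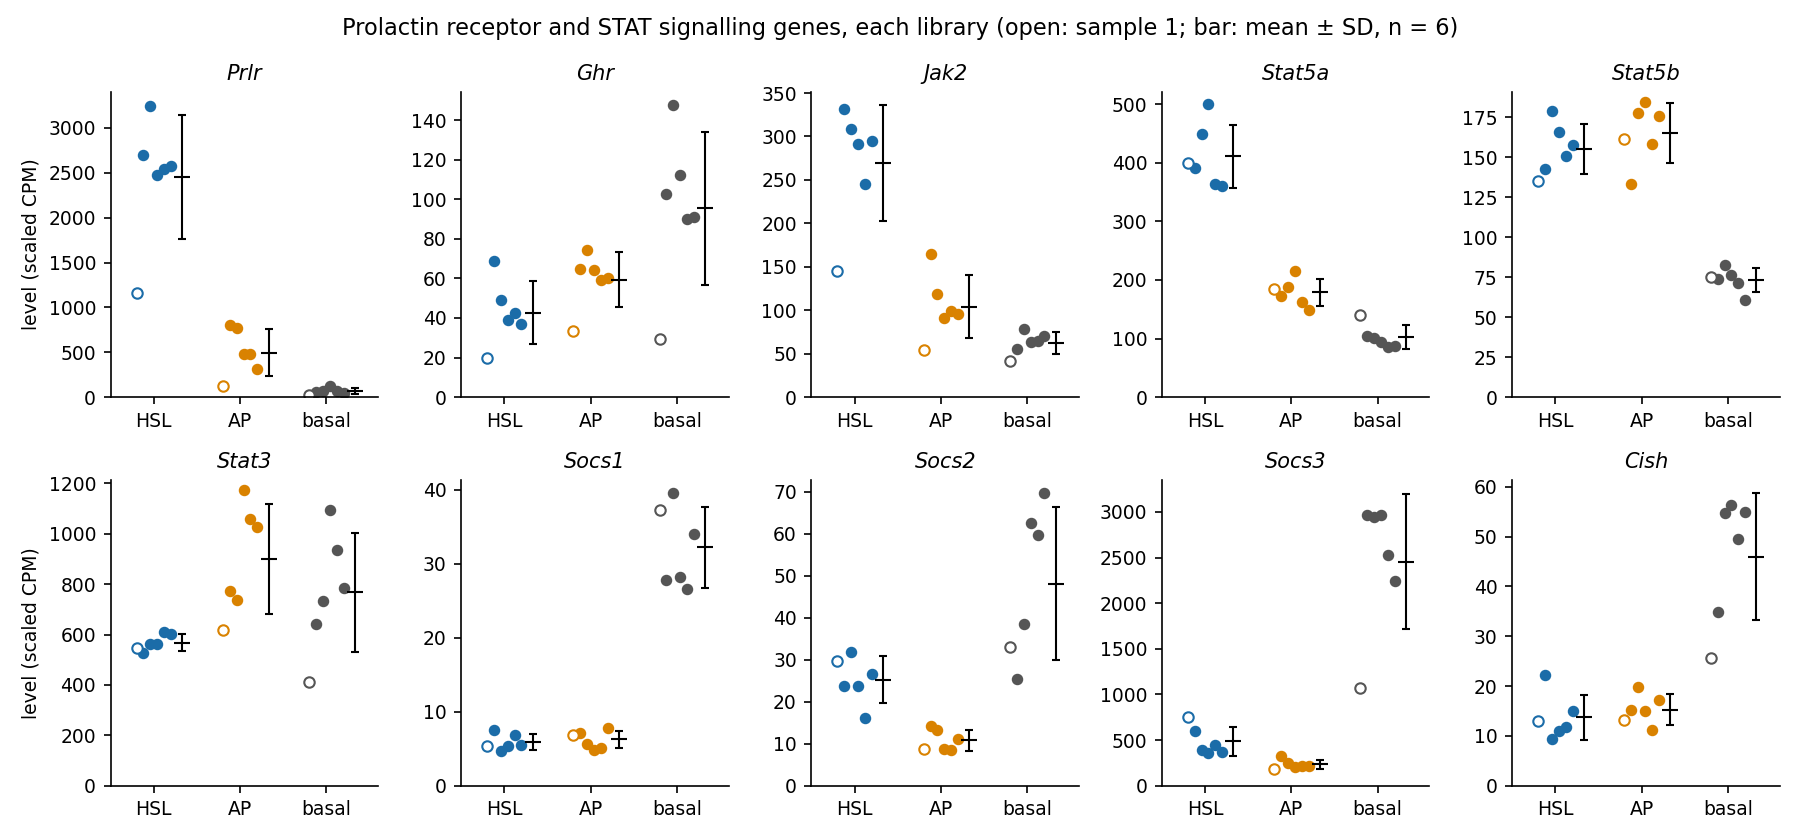
Level of each of the 10 genes (y axis, scaled CPM, linear from 0) in every HSL, AP and basal library (x axis). Each point is 1 library, open points are sample 1, and the bar shows the mean ± SD over 6 libraries. Prlr, Jak2 and Stat5a are highest in HSL, Socs1, Socs3 and Cish are highest in basal libraries with no overlap, and the open points are lowest in all 3 populations for Prlr, Ghr and Jak2.

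Jak2, the kinase bound to both receptors, had its highest levels in HSL libraries, between 145 and 331 CPM (median 293). In AP libraries Jak2 was at 54.6 to 164 CPM (median 97.8), and in basal libraries at 42.0 to 78.3 CPM (median 64.3). All HSL libraries were above all basal libraries, and a single HSL library, that of sample 1, fell within the AP range. The difference was 4.31-fold between HSL and basal cells (log2 2.11 ± 0.24, adjusted p = 5.18e-07) and 2.59-fold between HSL and AP cells (1.37 ± 0.23, adjusted p = 0.000136). In AP cells Jak2 was 1.66-fold higher than in basal cells (0.73 ± 0.23, adjusted p = 0.0138). That last call was lost without sample 2, whose AP library was the highest of its group (0.52, adjusted p = 0.0869; over all alternatives for Jak2 from 0.000406 to 0.167).

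The STAT5 genes split the luminal populations. Stat5a, the main prolactin-activated STAT of the gland, had 360 to 500 CPM in HSL libraries (median 395), 150 to 215 CPM in AP libraries (median 178) and 86.1 to 141 CPM in basal libraries (median 98.1). No 2 populations overlapped for Stat5a. It was 4.01-fold higher in HSL than in basal cells (log2 2.00 ± 0.13, adjusted p = 6.91e-10), 1.75-fold higher in AP than in basal cells (0.80 ± 0.13, adjusted p = 5.38e-05) and 2.30-fold higher in HSL than in AP cells (1.20 ± 0.13, adjusted p = 1.6e-06). Its neighbour Stat5b, better known for growth hormone signalling in liver, had 135 to 179 CPM in HSL libraries (median 154), 133 to 185 CPM in AP libraries (median 169) and 60.7 to 82.8 CPM in basal libraries (median 74.4). Both luminal populations were above every basal library for Stat5b and overlapped each other throughout. The fold was 2.12 for HSL against basal cells (1.08 ± 0.10, adjusted p = 4.76e-08) and 2.25 for AP against basal cells (1.17 ± 0.10, adjusted p = 2.87e-08). Between HSL and AP cells the Stat5b difference of -0.09 ± 0.10 did not pass (adjusted p = 0.498); scaled by total counts it was -0.27 (adjusted p = 0.0297, the lowest of a range that reaches 0.742), a scaling that itself moves the median of all genes to -0.18 in that comparison, against -0.01 with TMM factors.

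Set against each other per kilobase of exon, the pair differed by population. The ratio of Stat5a to Stat5b lay between 1.78 and 2.34 in HSL, 0.661 and 1.00 in AP, and 0.939 and 1.46 in basal libraries, with means of 2.06 ± 0.231, 0.846 ± 0.116 and 1.09 ± 0.198 (SD, n = 6 each). HSL libraries lay above all the others, and AP and basal libraries overlapped. The log2 difference of the ratio was 0.93 between HSL and basal libraries and 1.29 between HSL and AP libraries, each with an adjusted p = 0.00325 by a 2-sided exact permutation test adjusted over the 3 comparisons, whose raw p of 0.00216 is the smallest that 6 libraries against 6 allow. Between AP and basal libraries it was -0.36 (exact permutation test, adjusted p = 0.013). The permutation test treated the libraries of a comparison as independent. It did not pair those of the same sample number, and no paired test of the ratio is given. This ratio was chosen after the values of both genes had been seen. The genes lie next to each other on chromosome 11, Stat5b at 100780731 to 100850724 on the minus strand and Stat5a at 100859351 to 100885169 on the plus strand. Their coding sequences of 2391 bases (Stat5a) and 2358 bases (Stat5b) are 90.8% identical, with an unbroken shared run of 324 bases, and 8.21% of the 50-base stretches in Stat5a transcripts also occur in Stat5b. Reads from shared stretches cannot be placed, and how the authors treated them is not given, so the ratio is uncertain to that extent.

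**Figure D2:**
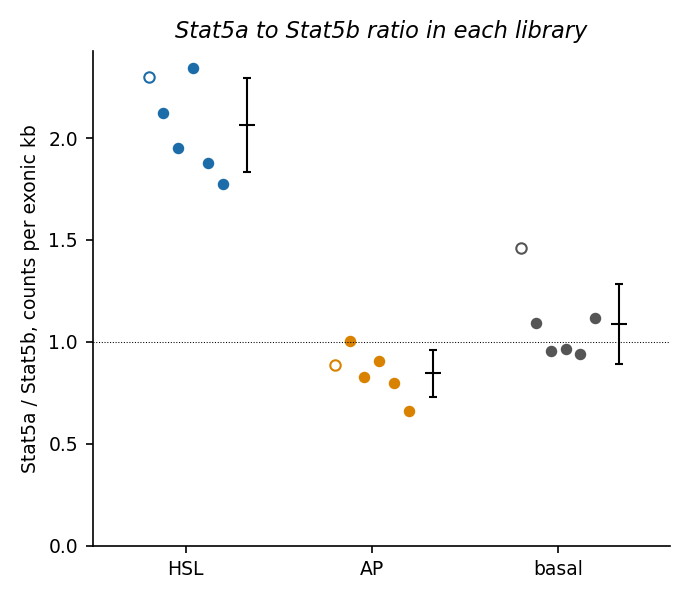
Ratio of Stat5a to Stat5b, both in counts per kilobase of exon (y axis, linear from 0), in each HSL, AP and basal library (x axis). Points are libraries, open points are sample 1, bars are the mean ± SD over 6 libraries, and the dotted line marks equal levels. HSL libraries lie between 1.78 and 2.34, above all AP and basal libraries.

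Stat3 was the only transcription factor of the 10 genes that was not lowest in basal cells. It had 525 to 610 CPM in HSL libraries (median 564), 617 to 1174 CPM in AP libraries (median 900) and 411 to 1095 CPM in basal libraries (median 760). The HSL libraries were tightly grouped, with a coefficient of variation of 5.8%, and all lay below the AP libraries. Stat3 was 1.58-fold lower in HSL than in AP cells (log2 -0.66 ± 0.20, adjusted p = 0.0119). Within samples 1 to 3 alone that call was lost (-0.44, adjusted p = 0.312, the highest of a range that starts at 0.000454). The HSL difference from basal cells missed the threshold (-0.43 ± 0.20, adjusted p = 0.0658), but passed once libraries of a number were paired in a replicate block (-0.37 ± 0.13, adjusted p = 0.0279) and without sample 1 (-0.57, adjusted p = 0.00377), with a range over all alternatives from 0.00158 to 0.665. The AP difference from basal cells did not pass either (0.23 ± 0.20, adjusted p = 0.37). Stat3 abuts Stat5a at their 3′ ends, at 100885098 to 100939540 on the minus strand of chromosome 11, and they share 72 bases.

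All 4 feedback inhibitor genes had their highest mean in basal cells. Socs3, which blocks gp130 and JAK signalling and restrains STAT3, was the most abundant, with 354 to 753 CPM in HSL libraries (median 419), 180 to 330 CPM in AP libraries (median 217) and 1066 to 2969 CPM in basal libraries (median 2733). The lowest basal library, that of sample 1, was still above every luminal library. Socs3 was 5.06-fold lower in HSL than in basal cells (log2 -2.34 ± 0.25, adjusted p = 3.13e-07), 10.5-fold lower in AP than in basal cells (-3.39 ± 0.26, adjusted p = 8.45e-09) and 2.07-fold higher in HSL than in AP cells (1.05 ± 0.24, adjusted p = 0.00212). Without sample 1 the HSL value against basal cells was -2.68 and that against AP cells 0.79 (adjusted p = 0.000796, where the alternatives ran from 0.000264 to 0.153).

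Socs1, an inhibitor of JAK kinases, was low in both luminal populations, with 4.70 to 7.50 CPM in HSL libraries (median 5.47) and 4.85 to 7.81 CPM in AP libraries (median 6.28), against 26.5 to 39.5 CPM in basal libraries (median 31.1). It was 5.47-fold lower in HSL and 5.16-fold lower in AP than in basal cells (log2 -2.45 ± 0.17, adjusted p = 1.05e-09, and -2.37 ± 0.17, adjusted p = 2.53e-09). Cish, a STAT5 target whose product competes for receptor docking sites, had 9.37 to 22.2 CPM in HSL libraries (median 12.4), 11.1 to 19.9 CPM in AP libraries (median 15.1) and 25.5 to 56.3 CPM in basal libraries (median 52.1). No luminal library reached the lowest basal one for Socs1 or Cish, and the luminal populations overlapped each other. Cish was 3.35-fold lower in HSL (-1.74 ± 0.23, adjusted p = 3.27e-06) and 3.01-fold lower in AP cells (-1.59 ± 0.23, adjusted p = 1.47e-05). The log2 differences between HSL and AP cells were -0.08 ± 0.16 for Socs1 (adjusted p = 0.712) and -0.15 ± 0.22 for Cish (adjusted p = 0.619). Of the Cish span, 38.9% is shared with the antisense annotations Gm17040 and Gm17041, and the kit does not mark strand, so reads of the opposite strands cannot be told apart there.

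Socs2, a negative regulator of growth hormone signalling in mice, was the inhibitor with the clearest step between the luminal populations. The HSL libraries held 16.1 to 31.8 CPM of Socs2 (median 25.2), the AP libraries 8.45 to 14.2 CPM (median 9.98) and the basal libraries 25.4 to 69.6 CPM (median 49.1). AP libraries lay below all others, while HSL and basal libraries overlapped. Socs2 was 4.47-fold lower in AP than in basal cells (log2 -2.16 ± 0.25, adjusted p = 9.99e-07), 1.90-fold lower in HSL than in basal cells (-0.93 ± 0.24, adjusted p = 0.00259) and 2.35-fold higher in HSL than in AP cells (1.23 ± 0.24, adjusted p = 0.000504). The file identifiers fall into a series for samples 1 to 3 and another for samples 4 to 6, and the HSL difference of Socs2 from basal cells was -0.20 within samples 1 to 3 (adjusted p = 0.588, the highest of a range that starts at 0.000114).

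Other values also differed between the populations, though not always in the order of the inhibitors. The summed level of 12 early genes known to be induced by tissue dissociation ran from 9431 to 13108 CPM in HSL, from 6724 to 14676 CPM in AP and from 7650 to 20398 CPM in basal libraries, and 7 of the 12 were called lower and 3 higher in HSL than in basal cells. In AP cells 2 of the 12 were lower than in basal cells and none higher. Among all tested genes 30.6% were lower and 27.8% higher in HSL than in basal cells. For AP against basal cells these shares were 23.1% and 21.5%. The sum of 9 endothelial markers ran from 16.9 to 44.7 CPM in HSL, from 26.7 to 82.3 CPM in AP and from 72.2 to 223 CPM in basal libraries, and that of 11 leukocyte markers from 5.81 to 138 CPM in HSL, from 10.4 to 103 CPM in AP and from 68.2 to 345 CPM in basal libraries. Itgam was listed at 0 in every library, and the highest leukocyte sum in each population was that of sample 1. For 7 pericyte markers the sum ran from 79.4 to 157 CPM in HSL, from 98.1 to 209 CPM in AP and from 74.3 to 114 CPM in basal libraries. Notch3, which was higher in both luminal populations than in basal cells, carried that sum in the luminal libraries, at 104 ± 23.8 CPM in HSL, 115 ± 36.8 CPM in AP and 11.01 ± 3.97 CPM in basal libraries. The other 6 pericyte markers were all lower in HSL than in basal cells, and 5 of them were lower in AP than in basal cells; Rgs5 was at 2.75 ± 1.62 CPM in HSL, 5.04 ± 1.92 CPM in AP and 26.0 ± 8.33 CPM in basal libraries. The part of dissociation or of other cell types in the levels of Socs1, Socs2, Socs3 and Cish was not tested.

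STAT5 and STAT3 bind the palindrome TTCNNNGAA, and the inhibitor promoters are shown because these genes are known STAT targets and were lower together in both luminal populations. In RefSeq promoters of GRCm38.p6, which run from 250 bases before to 50 after each annotated start, the motif was present in 3 of the 14 windows that matched 9 of the 10 genes, and in 8.30% of all 32851 windows. The motif is its own reverse complement, so a search of either strand finds the same places. Cish, on the plus strand at chr9:107296409-107296708, holds 2 copies, TTCCTGGAA from base 1 and TTCTTGGAA from base 12 of the annotated transcript; 0.457% of all windows hold 2 or more. Socs3, on the minus strand at chr11:117969317-117969616, holds TTCTTAGAA, whose first base is at -154. For Prlr, 1 of 3 windows, on the plus strand at chr15:10223656-10223955, holds TTCTAGGAA from -110. The windows read as follows from 5′ to 3′, with the motif in capitals.
Cish: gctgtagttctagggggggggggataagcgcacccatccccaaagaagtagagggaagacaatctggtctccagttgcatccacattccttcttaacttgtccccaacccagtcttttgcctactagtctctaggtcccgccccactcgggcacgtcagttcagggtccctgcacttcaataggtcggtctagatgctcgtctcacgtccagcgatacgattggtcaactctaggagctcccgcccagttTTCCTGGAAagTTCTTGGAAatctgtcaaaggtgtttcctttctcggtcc
Socs3: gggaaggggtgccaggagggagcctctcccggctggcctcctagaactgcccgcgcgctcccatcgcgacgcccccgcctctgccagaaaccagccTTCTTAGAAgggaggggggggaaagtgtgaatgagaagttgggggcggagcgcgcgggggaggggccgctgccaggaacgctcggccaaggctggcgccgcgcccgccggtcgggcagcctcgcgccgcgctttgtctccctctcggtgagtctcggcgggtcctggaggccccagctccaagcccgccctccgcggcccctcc
Prlr: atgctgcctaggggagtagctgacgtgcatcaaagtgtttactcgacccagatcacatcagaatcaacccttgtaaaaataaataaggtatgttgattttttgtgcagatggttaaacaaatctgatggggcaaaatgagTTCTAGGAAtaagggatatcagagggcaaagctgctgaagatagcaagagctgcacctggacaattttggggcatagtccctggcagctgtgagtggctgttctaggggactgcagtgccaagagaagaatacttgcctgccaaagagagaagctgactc
A match is a sequence description and not a measured binding site. The windows of Ghr, Jak2, Stat5a, Stat5b, Stat3 and Socs1 do not hold these letters, and Socs2 had no window in the table.

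Counted together, 9 of the 10 genes were called between HSL and basal cells, where 58.4% of all 16471 tested genes were called. Prlr, Jak2, Stat5a and Stat5b were higher and Ghr, Socs1, Socs2, Socs3 and Cish lower in HSL cells, against 27.8% and 30.6% of all genes called in those directions. For 7 of the 10 the HSL and basal libraries did not overlap, as for 36.9% of all genes. Between AP and basal cells 8 of the 10 were called, the same 4 higher and all 4 inhibitors lower, where 44.7% of all genes were called (21.5% higher and 23.1% lower), and 6 of the 10 did not overlap, as for 25.9% of all genes. In HSL against AP cells 6 of the 10 were called, with Prlr, Jak2, Stat5a, Socs2 and Socs3 higher and Stat3 lower, where 39.9% of all genes were called (19.8% higher and 20.1% lower), and 5 did not overlap, as for 20.6% of all genes. With so many genes called in each comparison, a count among 10 says little by itself. The median log2 fold of the 10 was -0.68 for HSL against basal, -0.23 for AP against basal and 0.48 for HSL against AP cells, beside -0.06, -0.001 and -0.01 for all genes. The HSL and AP comparisons with basal cells share their basal libraries.

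**Figure D3:**
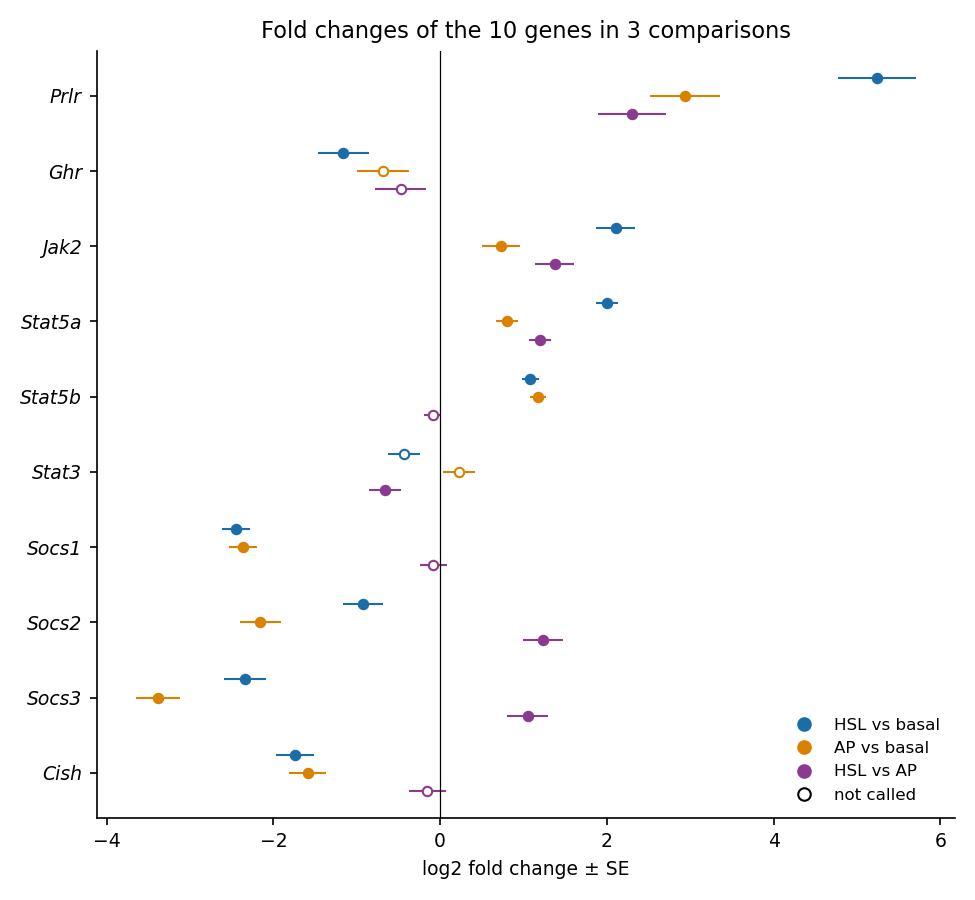
Log2 fold change ± SE (x axis) of each of the 10 genes (y axis) for HSL against basal, AP against basal and HSL against AP cells. Filled points passed an adjusted p of 0.05 and open points did not. Prlr lies farthest to the right at 5.24 for HSL against basal cells and Socs3 farthest to the left at -3.39 for AP against basal cells.

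Levels per kilobase of exon allow the genes to be ranked within a population, with a limit for Prlr and Cish. Of their exonic bases 82.1% and 40.9% lie within the span of another gene. How reads there were counted is not given, so the levels per kilobase and the ranks of Prlr and Cish are uncertain. In HSL cells Socs3 at 168 ± 54.7 and Prlr at 160 ± 45.0 CPM per exonic kilobase led and did not differ beyond their spread, followed by Stat3 at 59.7 ± 3.44, Stat5a at 57.6 ± 7.59 and Jak2 at 53.6 ± 13.3, which also lay within each other's spread. Stat5b stood at 28.0 ± 2.86 CPM per exonic kilobase in HSL cells, and Ghr, Socs2, Cish and Socs1 between 2.03 and 4.72. In AP cells Stat3 at 94.3 ± 22.9 and Socs3 at 80.9 ± 18.1 led, and Prlr at 32.4 ± 17.1, Stat5b at 29.8 ± 3.35 and Stat5a at 25.1 ± 3.20 CPM per exonic kilobase lay close together. In basal cells Socs3 stood at 848 ± 256 and Stat3 at 80.6 ± 24.8, all others between 4.24 and 14.3, with Prlr at the bottom. The Prlr rank thus ran from the second place in HSL to the third in AP and the tenth in basal cells. Dividing by the gene widths in the files, which include introns for most genes, changes these ranks: Prlr is then the third in HSL, the fifth in AP and the ninth in basal cells.

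Among 6 other kinases and STATs, 4 were higher in HSL cells and 3 in AP cells, each against basal cells, and none was lower in either; of all tested genes 27.8% were higher in HSL and 21.5% in AP than in basal cells. The HSL call of Jak1 (log2 0.29 ± 0.11, adjusted p = 0.0317) was lost when any one of samples 2 to 6 was left out (adjusted p from 0.0634 to 0.168), and that of Tyk2 without sample 6 (adjusted p = 0.0533), which leaves Jak3 and Stat2. Jak3, a kinase best known from lymphocytes, was at 64.2 ± 11.5 CPM in HSL, 75.4 ± 8.72 CPM in AP and 8.46 ± 2.04 CPM in basal libraries. Neither luminal population overlapped basal libraries for Jak3 (log2 2.92 ± 0.16, adjusted p = 8.23e-11 for HSL; 3.16 ± 0.16, adjusted p = 6.8e-11 for AP). Stat2, a mediator of type I interferon signals, was at 34.8 ± 4.35 CPM in HSL, 13.7 ± 3.91 CPM in AP and 15.1 ± 5.21 CPM in basal libraries, higher in HSL than in basal cells by 1.21 ± 0.22 (adjusted p = 0.000155) and than in AP cells by 1.34 ± 0.23 (adjusted p = 0.000131). Stat6, which interleukin 4 activates, was higher in AP than in basal cells (0.63 ± 0.14, adjusted p = 0.000918). Stat4 was not called in any comparison, and the calls of Tyk2 are uncertain because 89.5% of its span lies in other genes.

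The other SOCS genes had various orders. Of Socs4, Socs5, Socs6 and Socs7, HSL cells had 3 lower than basal cells, AP cells had 1 above and 1 below basal cells, and all 4 were lower in HSL than in AP cells. For Socs4 that difference was small (log2 -0.37 ± 0.14, adjusted p = 0.0491) and was lost without sample 2, 3, 4 or 5 (adjusted p from 0.0552 to 0.162). Socs7 was highest in basal libraries, like the 4 inhibitors above, at 3.33 ± 0.946 CPM in HSL, 6.63 ± 1.97 CPM in AP and 10.8 ± 2.29 CPM in basal libraries. It was lower in HSL than in basal cells (-1.70 ± 0.24, adjusted p = 9.31e-06) and in AP than in basal cells (-0.70 ± 0.24, adjusted p = 0.0219), a call lost without sample 2, 5 or 6 (adjusted p from 0.0510 to 0.118). Socs5, linked to receptor turnover, was at 75.1 ± 9.17 CPM in HSL, 263 ± 62.7 CPM in AP and 179 ± 27.4 CPM in basal libraries, lower in HSL than in AP cells by a log2 fold of -1.81 ± 0.15 (adjusted p = 1.92e-07). Of 11 phosphatase, PIAS and SH2B genes, which restrain or scaffold JAK and STAT proteins, HSL cells had 4 above and 6 below basal cells. AP cells had 2 above and 4 below basal cells, and 3 were above and 4 below in HSL against AP cells. Beside this list and the other SOCS genes, 58.4% of all tested genes were called for HSL against basal cells. The shares were 44.7% for AP against basal and 39.9% for HSL against AP cells. Among the 6 below in HSL cells, Ptpn11 lost its call when any one of samples 2 to 6 was left out (adjusted p from 0.0516 to 0.0920). Ptpn2 lost its call without sample 5 or 6 (adjusted p = 0.0550 and 0.0583). Ptpn1, a phosphatase that acts on JAK2, was at 351 ± 49.7 CPM in HSL, 167 ± 29.6 CPM in AP and 196 ± 35.4 CPM in basal libraries (0.85 ± 0.15, adjusted p = 9.57e-05 for HSL against basal cells). Ptpn6, the phosphatase SHP-1, was at 52.5 ± 4.10 CPM in HSL, 23.9 ± 4.03 CPM in AP and 19.8 ± 3.51 CPM in basal libraries (1.41 ± 0.13, adjusted p = 5.52e-08 for HSL against basal cells), with 32.6% of its span in other genes. Sh2b3, an adaptor that dampens JAK2, was at 19.2 ± 4.95 CPM in HSL, 24.5 ± 2.75 CPM in AP and 51.6 ± 5.50 CPM in basal libraries (-1.43 ± 0.16, adjusted p = 3.29e-07 for HSL against basal cells).

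Receptors of the LIF and interleukin 6 family, which feed STAT3, differed by population as well. Of 19 other cytokine receptor genes 16 were tested, of which HSL cells had 4 above and 7 below basal cells. AP cells had 1 above and 6 below basal cells, and 6 were above and 5 below in HSL against AP cells. The shares of all tested genes called in these comparisons were 58.4%, 44.7% and 39.9%. Il6st, which encodes gp130, was at 308 ± 63.8 CPM in HSL, 234 ± 25.0 CPM in AP and 549 ± 100 CPM in basal libraries, lower in AP than in basal cells by a log2 fold of -1.23 ± 0.16 (adjusted p = 3.9e-06). Its call for HSL against AP cells (0.40 ± 0.16, adjusted p = 0.0492) was lost when any one of samples 2 to 6 was left out (adjusted p from 0.106 to 0.198). It was also lost with DESeq2 (adjusted p = 0.0609) and limma-voom (adjusted p = 0.0668). Lepr, above in HSL against basal cells, lost that call without sample 1, 4 or 6 (adjusted p from 0.115 to 0.214). Osmr, the oncostatin M receptor, was at 66.7 ± 14.4 CPM in HSL, 166 ± 50.4 CPM in AP and 314 ± 117 CPM in basal libraries (-2.23 ± 0.29, adjusted p = 2.98e-06 for HSL against basal cells). Lifr, the LIF receptor, was at 241 ± 103 CPM in HSL, 69.7 ± 27.3 CPM in AP and 245 ± 79.5 CPM in basal libraries, and AP and basal libraries did not overlap (-1.81 ± 0.40, adjusted p = 0.00113). Il6ra, the interleukin 6 receptor, had the opposite order, with 49.5 ± 9.30 CPM in HSL, 25.2 ± 10.3 CPM in AP and 11.9 ± 3.59 CPM in basal libraries (2.06 ± 0.28, adjusted p = 4.94e-06 for HSL against basal cells). Il2rg was listed at 0 throughout, with its whole span inside another gene.

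Of 17 ligand genes 9 were tested, and the pituitary hormone genes Prl and Gh were at 0 in all 18 libraries. HSL cells had 4 below and none above basal cells, and AP cells had 1 above and 1 below. In HSL against AP cells 3 were below and none above. The shares of all tested genes called in these comparisons were 58.4%, 44.7% and 39.9%. Il11 and Cntf for HSL against basal cells and Csf3 for HSL against AP cells lost their calls when some single samples were left out. Lif was the one ligand gene called higher in AP than in basal cells: HSL libraries held 10.8 to 20.5 CPM of it, AP libraries 76.0 to 296 CPM and basal libraries 6.57 to 17.7 CPM. The AP libraries overlapped neither of the others, and Lif was higher in AP than in basal cells by a log2 fold of 4.11 ± 0.32 (adjusted p = 8.3e-09) and lower in HSL than in AP cells (-3.53 ± 0.31, adjusted p = 2.63e-07). The population with the highest Lif thus had the lowest Lifr and Il6st means, though the Il6st call between HSL and AP cells was not stable, as given above. Il6, the interleukin 6 gene, was at 2.6 ± 1.12 CPM in HSL, 4.71 ± 1.96 CPM in AP and 17.9 ± 5.49 CPM in basal libraries (-2.78 ± 0.36, adjusted p = 3.08e-06 for HSL against basal cells). Ctf1, cardiotrophin 1, was at 37.3 ± 5.23 CPM in HSL, 41.2 ± 3.99 CPM in AP and 40.8 ± 3.69 CPM in basal libraries and was not called in any comparison.

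**Figure D4:**
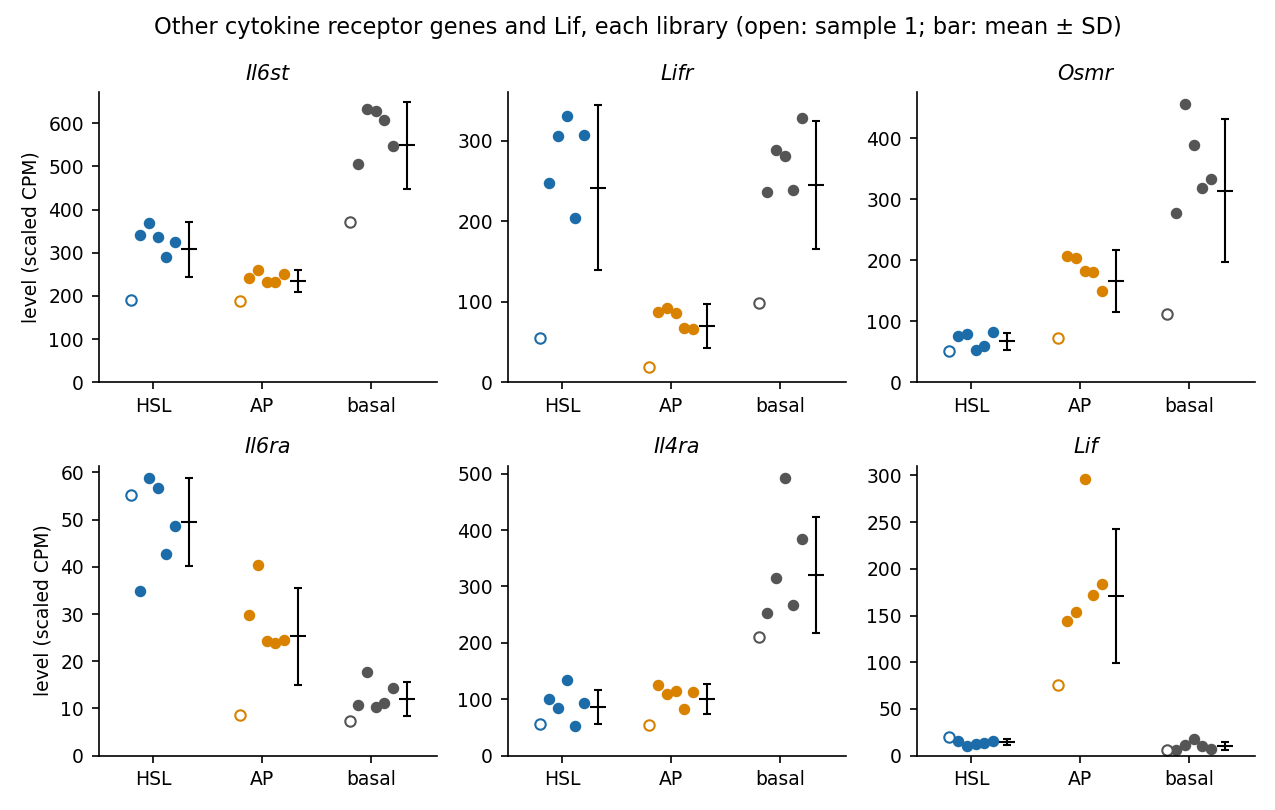
Level (y axis, scaled CPM, linear from 0) of 5 other cytokine receptor genes and of Lif in each HSL, AP and basal library (x axis). Points are libraries, open points are sample 1, and bars are the mean ± SD over 6 libraries. Lif is highest in AP libraries, at 76.0 to 296 CPM, where Lifr and Il6st have their lowest means, and Osmr and Il4ra are highest in basal libraries.

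Known STAT5 targets of the mammary gland were not, as a list, highest where Stat5a was highest. Of 17 such genes 14 were tested. HSL cells had 5 above and 3 below basal cells, and AP cells had 6 above and 1 below basal cells. In HSL against AP cells 2 were above and 8 below. The median log2 fold was 0.23, 1.52 and -1.94 in these comparisons (all genes -0.06, -0.001 and -0.01). Among all tested genes 58.4%, 44.7% and 39.9% were called in them. The 2 above in HSL against AP cells, Bcl2l1 and Akt1, both lost that call without sample 3 (adjusted p = 0.0931 and 0.0688) and without sample 6 (adjusted p = 0.122 and 0.0529), and Bcl2l1 also without sample 1 or 5. Of the 8 below, Csn1s1 and Csn2, milk caseins, lost theirs when any one of samples 2 to 6 was left out, as did Akt1 and Tnfsf11 theirs for HSL against basal cells. The 1 below in AP against basal cells, Igf2, lost its call without sample 1, 2, 5 or 6 (adjusted p from 0.0581 to 0.109). Other genes cover 99.98% of the Igf2 span. Elf5, a transcription factor of the alveolar lineage, was at 23.9 ± 7.44 CPM in HSL, 190 ± 24.8 CPM in AP and 4.11 ± 1.57 CPM in basal libraries, with no overlap between populations. Lalba, the milk protein alpha-lactalbumin, was at 0.909 ± 0.540 CPM in HSL, 99.5 ± 63.1 CPM in AP and 1.10 ± 0.646 CPM in basal libraries, lower in HSL than in AP cells by -6.82 ± 0.77 (adjusted p = 2.39e-06); its AP level in sample 1 was 3.20 CPM. Bcl2l1, the survival gene Bcl-x, had the same order of means as Stat5a, with 180 ± 38.0 CPM in HSL, 133 ± 29.6 CPM in AP and 105 ± 11.2 CPM in basal libraries (0.78 ± 0.16, adjusted p = 0.000282 for HSL against basal cells). Ccnd1, cyclin D1, was at 143 ± 48.3 CPM in HSL, 309 ± 171 CPM in AP and 31.6 ± 36.3 CPM in basal libraries, with the highest value of each population in sample 1 and 17.7% of its span in other genes. Id2, an inhibitor of helix-loop-helix factors, was at 35.5 ± 12.8 CPM in HSL, 133 ± 28.1 CPM in AP and 75.6 ± 13.3 CPM in basal libraries, lower in HSL than in AP cells by -1.90 ± 0.21 (adjusted p = 2.05e-06). The milk genes among these and Elf5 are also markers of the alveolar lineage.

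Of 12 targets of STAT3 11 were tested; HSL cells had 8 below and none above basal cells, AP cells had 5 below and 1 above basal cells, and 6 were below and none above in HSL against AP cells, with a median log2 fold of -1.83, -0.66 and -1.18. Of all tested genes 30.6% were lower in HSL than in basal cells, 23.1% in AP than in basal cells and 20.1% in HSL than in AP cells. The 3 targets not called for HSL against basal cells were Bcl3 (0.06), Ctsb (0.02) and Lrg1 (0.31), and among the 8 lower ones Fos lost its call without sample 3, 4, 5 or 6. Cebpd, a transcription factor induced at involution, was at 107 ± 70.3 CPM in HSL, 417 ± 101 CPM in AP and 995 ± 290 CPM in basal libraries, with no overlap between populations and 48.3% of its span in other genes. Pik3r1, a regulatory subunit of phosphoinositide kinase, was at 71.8 ± 6.98 CPM in HSL, 222 ± 21.3 CPM in AP and 255 ± 66.1 CPM in basal libraries (-1.83 ± 0.15, adjusted p = 6.85e-09 for HSL against basal and -1.63 ± 0.15, adjusted p = 2.73e-07 for HSL against AP cells). Igfbp5, an involution gene whose product binds insulin-like growth factor, was at 152 ± 73.2 CPM in HSL, 4175 ± 1672 CPM in AP and 2917 ± 713 CPM in basal libraries (-4.27 ± 0.39, adjusted p = 3.9e-08 for HSL against basal cells). Myc, the proliferation factor, was at 155 ± 11.4 CPM in HSL, 353 ± 89.7 CPM in AP and 584 ± 134 CPM in basal libraries (-1.91 ± 0.19, adjusted p = 1.11e-07 for HSL against basal cells). Lrg1, an acute phase gene, was at 69.5 ± 22.0 CPM in HSL, 616 ± 291 CPM in AP and 56.2 ± 20.4 CPM in basal libraries. Fos and Junb of this list are also among the early dissociation genes.

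**Figure D5:**
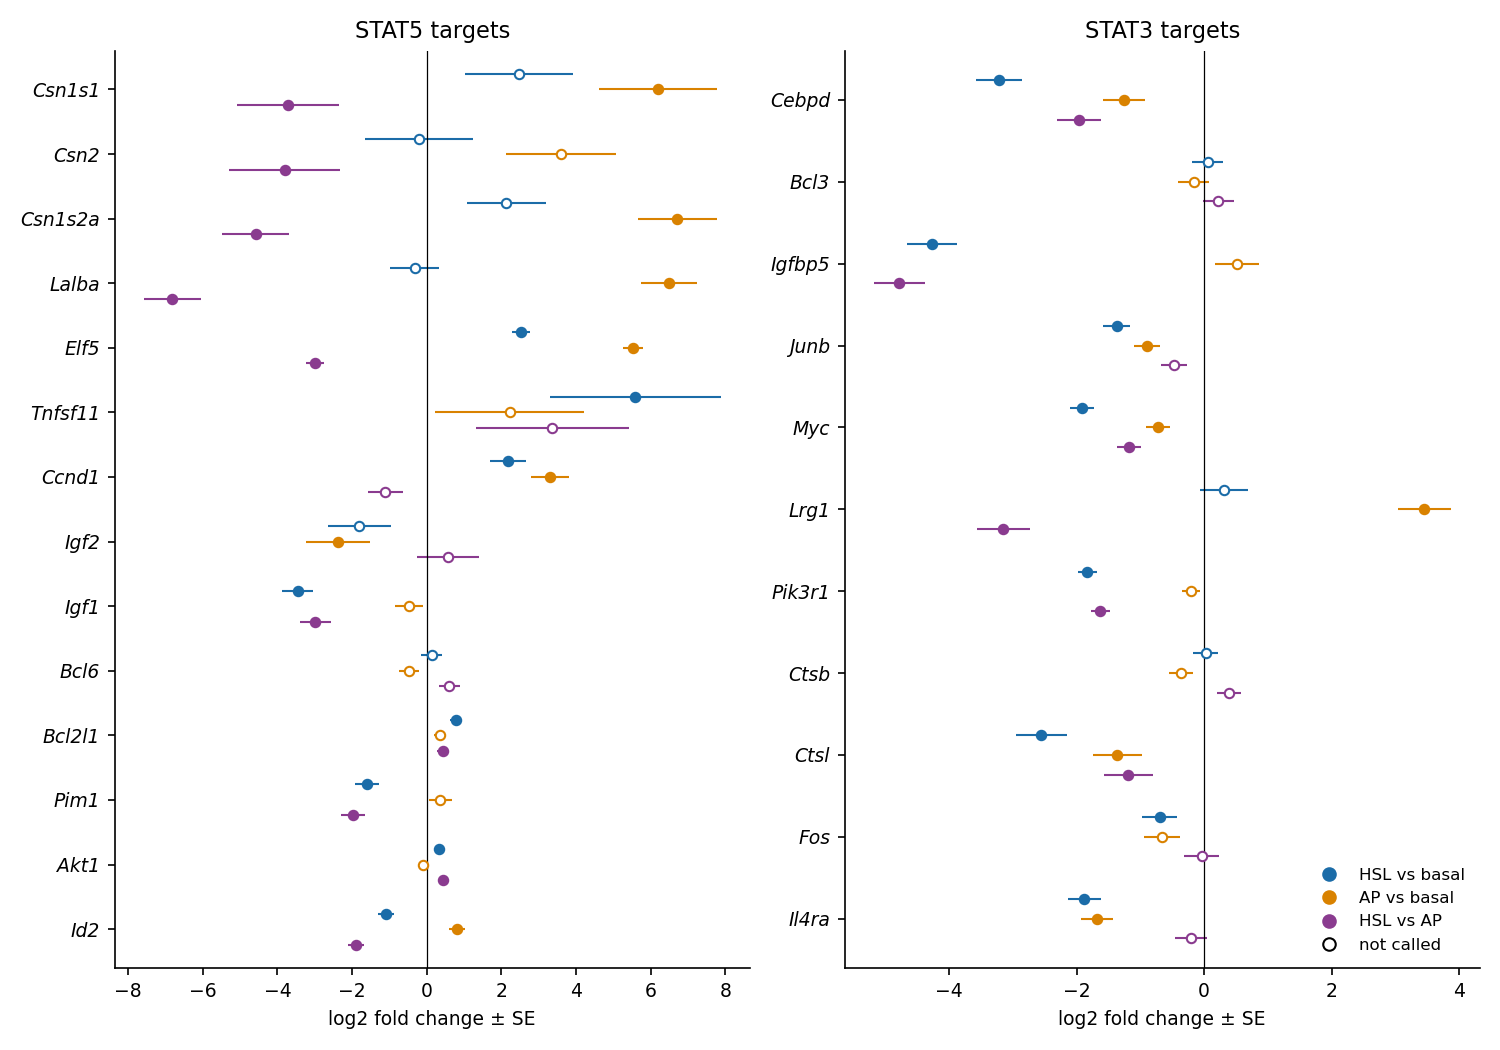
Log2 fold change ± SE (x axis) of the tested STAT5 targets (left) and STAT3 targets (right) for HSL against basal, AP against basal and HSL against AP cells. Filled points passed an adjusted p of 0.05 and open points did not. Lalba and Elf5 lie far to the right for AP against basal cells and to the left for HSL against AP cells, and no filled STAT3 target lies to the right for a comparison of HSL cells.

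Within populations the genes did not vary alike. Prlr, Ghr and Jak2 had their lowest value in sample 1 in all 3 populations, as did 7.66% of all tested genes, against 0.474 to 2.84% for the other sample numbers. Relative to the median of the other 5 libraries, sample 1 had 0.448 of the Prlr level in HSL, 0.247 in AP and 0.368 in basal libraries, and 0.493 of the Jak2 level in HSL, 0.549 in AP and 0.645 in basal libraries. Stat5a and Stat5b in sample 1 were near that median in HSL (1.02 and 0.857 of it) and AP libraries (1.07 and 0.919), while Stat5a was 1.49 of it in basal libraries. Socs3 in sample 1 was highest of its group in HSL, at 1.91 of the median of the others, and lowest in AP, at 0.829, and in basal libraries, at 0.362. Leaving sample 1 out changed no direction among the 10 genes, and the log2 folds of Prlr were then 5.20 for HSL against basal, 2.98 for AP against basal and 2.22 for HSL against AP cells.

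Several genes followed Prlr closely over the 18 libraries. By the root mean square difference of centred log2 CPM among 10197 genes with a mean of at least 10 CPM in some population, the nearest to Prlr were Tmem56 (0.269), Piezo2 (0.312), Krt7 (0.327), Slc44a4 (0.328) and Pls1 (0.343). Tmem56 was at 2260 ± 597 CPM in HSL, 432 ± 204 CPM in AP and 72.8 ± 26.1 CPM in basal libraries. The nearest to Jak2 were Nck2 (0.183), Fbxw11 (0.205) and Hipk2 (0.243). This difference is not scaled by a gene's own spread, so its size does not compare between genes with unlike folds. Socs3 was followed by Slc6a6 (0.316), Ppp1r18 (0.327) and Tes (0.354), and Socs1 by Ntf5 (0.274), Spred1 (0.298) and Tmem263 (0.319). For Socs2 the closest genes were Zcchc24 (0.377), Itga3 (0.410) and Aifm2 (0.419). Among the 10 genes themselves the closest pairs were Jak2 and Stat5a (0.488), Socs1 and Cish (0.523) and Stat5a and Stat5b (0.575). All these points share the 3 populations and the 6 sample numbers.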

How the data were processed

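RNA was measured in 18 libraries: Smart-Seq V4 cDNA from 2 ng of RNA was made into libraries with Nextera XT (150 pg of cDNA), a kit that does not mark strand, per the labels' protocols. The authors deposited whole-number gene counts, unnormalized, and beside them RPKM values per the file headers. Reads were placed on GRCm38, as the submitters' processing notes state; aligner and counter are not given in the labels. RPKM served as a file check only: gene counts sum to between 87.0 and 89.9% of the total that these values imply. Groups came from the titles. Nothing says whether a number's 3 libraries were handled apart, so p-values measure the spread between these 6 samples.

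Symbols and coordinates were taken from GENCODE M21 for 52489 of 52636 identifiers; the other 147, with at most 0.00677% of a library's counts, were left out. Counts were filtered with filterByExpr (minimum count 10), scaled with TMM factors and fitted with the robust quasi-likelihood model of edgeR 4.0.16 in R 4.3.3, with 1 mean per population over all 18 libraries; fits were tested on simulated data. The threshold for a call was an adjusted p of 0.05; standard errors are the log2 fold change over the square root of F. The log2 CPM used for likeness between genes had a prior count of 2. Alternatives were other scalings and filters, DESeq2 1.42.0, limma-voom (limma 3.58.1), the sample number as a block, each sample left out and either file series alone. Numbers were taken to pair libraries because the labels number 6 samples of 6 animals in each population. Deviations of same-numbered libraries also correlated across genes in all 18 pairs (r from 0.127 to 0.630). For sample 6, however, a library of another number matched better in each pair of populations (r for its own number 0.172, 0.128 and 0.127). The deposited gene widths include introns for most genes (85.6% match the span), and 91.5% of 679 protein-coding genes nested in another gene with separate exons are at 0 in all libraries, against 22.9% of 11756 without overlap, so levels of overlapping genes are uncertain. Promoters came from RefSeq (GRCm38.p6); Python 3.11.15 and Biopython 1.88 were used.

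The 10 genes and all gene lists were chosen with earlier results of these data known. Named list genes are, of each list, up to 4 that were called, taken by smallest adjusted p, and up to 2 abundant members without a call, and for likeness the 3 to 5 nearest genes of up to 5 members with large folds; not every such gene is printed. For lists of cell type markers, the 2 members with the highest mean CPM could be named. Lifr, Il4ra, Il2rg, Prl, Gh, Tnfsf11, Bcl2l1, Akt1, Csn1s1, Csn2, Ccnd1, Lrg1, Fos and Junb fall outside these rules. So do Jak1, Ptpn2, Ptpn11, Lepr, Il11, Cntf, Igf2, Adipoq, Itgam and Rgs5, and all of these were named after their values were seen. 1 gene was taken out of the lists after the analysis and is not reported here.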

Additional observations from a re-analysis of the deposited data

Results flagged for a closer look

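In 30 groups of 6 libraries (10 genes in 3 populations), 3 held a value that stood apart, with a gap to its neighbour above 0.625 of the whole range; chance gives about 1 in 20 groups. All 3 were libraries of sample 1. Prlr in HSL cells was at 1157 CPM in sample 1 and between 2481 and 3240 CPM in the others. Ghr in AP cells was at 33.6 CPM in sample 1 and between 59.2 and 74.2 CPM in the others. Stat5a in basal cells was at 141 CPM in sample 1 and between 86.1 and 104 CPM in the others, the one value that stood apart on the high side.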

How the results depend on the processing

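Of 510 alternative values for the log2 folds of the 10 genes, 487 kept their direction and side of the threshold, 14 newly passed, 9 no longer passed and none changed direction. Samples 1 to 3 alone account for 8 of the 9 losses, among them Prlr for HSL against AP cells (2.00, adjusted p = 0.121, the highest of a range that starts at 8.95e-08); this fit has fewer libraries, and sample 1 is in it. It called 5674 genes for HSL against basal, 3718 for AP against basal and 1491 for HSL against AP cells, against 9621, 7356 and 6571 with all samples. Of the pathway genes it called 27, 14 and 14, against 47, 32 and 43, and of the 10 genes 2 for HSL against AP cells, against 6. Leaving out each sample in turn gave 8546 to 10651, 6205 to 8352 and 5207 to 7898 genes, 38 to 49, 28 to 38 and 35 to 48 pathway genes, and 9 to 10, 7 to 9 and 6 to 7 of the 10. With the replicate block 11082, 9072 and 8374 genes were called, and among the 10 only Ghr and Stat3 gained a call, as given above. Scaled by total counts, 35.6% of calls were higher in HSL than in AP cells, against 49.6% with TMM factors, and 57.6% higher in AP than in basal cells, against 48.2%. The cause of these shifts was not tested. The lowest count of any of the 10 genes in a library was 134 (Socs1 in HSL sample 6).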
